A study of Mus musculus with 16 samples.

Results

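Lysyl oxidases are secreted, copper-dependent amine oxidases that convert lysine residues of elastin and of fibrillar collagens into reactive aldehydes, from which the covalent crosslinks between neighbouring chains form. Lox, the founding member, is made as a proenzyme and is cut to its active form by Bmp1 and related proteases; in mice, its loss weakens the wall of the aorta. Loxl1 is tied to the upkeep of elastic fibres in adult mouse tissue, and Loxl3 and Loxl4 belong to the branch of the family that carries scavenger receptor domains. Their transcripts were followed here in the ascending aorta and in the aortic valve (dissected with its cusp, annulus and root) of Eln+/+ mice and of Eln+/- mice, which are heterozygous for elastin, the main substrate of crosslinking in the arterial wall. The family was taken as 4 genes, Lox, Loxl1, Loxl3 and Loxl4, each read from the probe sets that the platform annotation gives to that gene alone. Together they had 8 probe sets, out of 34945 with a single gene, for 18193 genes, and 45037 tested. Lox had 3, Loxl1 had 2, Loxl3 had 1 and Loxl4 had 2. Loxl2, also of this family, was left out because its probe sets are annotated to 2 genes.

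All mice were 30 days old, none was treated, and 4 arrays stood for each combination of tissue (aorta or valve) and genotype (Eln+/+ or Eln+/-). Each array held amplified RNA of 1 specimen from 1 animal, without pooling. The labels record neither the sex of the mice nor whether aortas and valves that share a number share a mouse. Values are given as the log2 of the deposited ratio. In most probe sets this is each signal divided by its probe set's median across the 16 arrays, so 0 is the median array. In 5274 of 45101 probe sets the median ratio is below 1, and there 0 lies above the median array. Such a ratio holds no absolute level, so neither the order of the family members by abundance nor the absence of any transcript can be read from it.

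Several features of the arrays differ between the groups. The 14 cardiac muscle markers were all higher in valve than in aorta, with a median difference of 4.04. Smooth muscle markers moved the other way: 8 of 12 were lower in valve, 1 was higher (Des, which heart muscle also makes), and the median difference was -0.96. By their mean cardiac markers, 2 aorta arrays, replicate 2 of Eln+/+ at -1.03 and replicate 3 of Eln+/- at -0.86, stood above the other 6 aorta arrays, which lay between -4.14 and -3.00. Aorta Eln+/- replicates 2 and 4 had mean T cell and thymocyte markers of 1.73 and 1.05, against at most 0.037 on the other 14 arrays, and replicate 2 also had the lowest smooth muscle mean of any aorta, -0.79. Xist was high relative to 3 Y-linked genes (log2 difference 0.27 to 0.84) on all 8 Eln+/- arrays and on 2 Eln+/+ arrays, aorta replicate 4 and valve replicate 2, and low (-11.0 to -10.6) on the other 6 Eln+/+ arrays, so the Eln+/- arrays differed from most Eln+/+ arrays in this measure too. For Eln itself, the difference between Eln+/- and Eln+/+ was -1.27 ± 0.34 (SE) in valve and -0.42 ± 0.34 in aorta on probe set 1420854_at, with limma adjusted p of 0.395 and 0.900. On its other probe set, 1420855_at, it was -0.61 ± 0.22 and -0.22 ± 0.22 (limma adjusted p = 0.454 and 0.920). Differences in this bulk RNA cannot separate fewer cells of a type from less RNA per cell.

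Lox transcripts were lower in valve than in aorta by every one of its probe sets, and this was the clearest difference in the family. On probe set 1448228_at the aorta Eln+/+ arrays read 0.49, 0.51, 0.13 and 0.57, and the aorta Eln+/- arrays read 0.44, 1.18, 0.49 and 1.00. The valve Eln+/+ arrays read -0.68, -0.14, -0.31 and -0.77, and the valve Eln+/- arrays -1.64, -0.24, -2.17 and -0.67. All 8 valve arrays lay below all 8 aorta arrays, and the Eln+/- valves spread most widely, from close to the Eln+/+ valves down to the 2 lowest arrays of the series. Averaged over the genotypes, valve minus aorta was -1.43 ± 0.23 (SE, 8 arrays per tissue), a ratio of 0.372, with a limma adjusted p of 0.00124; the exact permutation p was 0.000408, the lowest value possible over the 4900 assignments within genotype.

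The second Lox probe set, 1416121_at, is annotated to the same transcript accession and followed it closely (r = 0.97 over the 16 arrays). Its aorta values were 0.44, 0.21, 0.24 and 0.22 in Eln+/+ and 0.32, 0.63, 0.34 and 0.30 in Eln+/-. Its valve values were -1.12, -0.24, -0.36 and -1.06 in Eln+/+ and -1.65, -0.44, -2.16 and -1.11 in Eln+/-. Again no valve array reached the lowest aorta array, and the aortas were far more alike than the valves, with an SD of 0.11 and 0.15 against 0.46 and 0.74. The tissue difference was -1.35 ± 0.20, a ratio of 0.391 (limma adjusted p = 0.00066; exact permutation p = 0.000408).

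The third Lox probe set, 1437903_at, carries another accession. The labels do not state its divisor, and its median ratio over the arrays was 0.638 rather than 1. All its log2 values were negative. In aorta it read -0.60, -0.48, -0.51 and -0.67 in Eln+/+, and -0.56, -0.0070, -0.62 and -0.23 in Eln+/-. In valve it read -1.08, -0.98, -0.63 and -0.85 in Eln+/+, and -1.15, -0.87, -1.13 and -1.15 in Eln+/-. The tissues overlapped here through 1 valve Eln+/+ array, replicate 3, and the difference was smaller, -0.52 ± 0.11, a ratio of 0.698 (limma adjusted p = 0.00617; exact permutation p = 0.000816). The size of the Lox difference therefore varied with the probe set, while its direction did not.

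Loxl1, which mice need for the renewal of elastic fibres, was also lower in valve, by a smaller margin. On probe set 1436063_at the aortas read 0.35, 0.33, 0.76 and -0.0035 in Eln+/+ and 0.28, -0.32, 0.36 and 0.28 in Eln+/-. The valves read 0.044, -0.085, 0.0035 and -0.38 in Eln+/+ and -0.38, -0.14, -0.85 and -0.15 in Eln+/-. The low aorta array was Eln+/- replicate 2, the one with the low smooth muscle markers, and it lay inside the valve range. Valve minus aorta was -0.50 ± 0.14, a ratio of 0.708 (limma adjusted p = 0.0451; exact permutation p = 0.0045).

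The other Loxl1 probe set, 1451978_at, gave 0.14, 0.37, 0.54 and -0.12 in aorta Eln+/+ and 0.34, 0.019, 0.23 and 0.16 in aorta Eln+/-. It gave -0.064, -0.22, 0.016 and -0.23 in valve Eln+/+ and -0.62, -0.016, -0.70 and -0.61 in valve Eln+/-. In this probe set 3 of the 4 Eln+/- valves lay below every other array of the series. Its tissue difference was -0.52 ± 0.12, a ratio of 0.699 (limma adjusted p = 0.0142; exact permutation p = 0.0020), close to that of the first.

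Loxl3, which acts on collagens and in mice is needed for the palate and the spine, was measured by 1 probe set, 1418269_at. The aortas read 0.28, 0.0044, 0.71 and 0.050 in Eln+/+ and 0.78, -0.26, 0.23 and 0.39 in Eln+/-. The valves read -0.57, -0.0044, 0.28 and -0.43 in Eln+/+ and -0.17, -0.23, -0.75 and -0.73 in Eln+/-. The tissues overlapped, and valve minus aorta was -0.60 ± 0.17, a ratio of 0.661 (limma adjusted p = 0.0448; exact permutation p = 0.0082).

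Loxl4 showed no such difference. Probe set 1450134_at read -0.012, 0.070, 0.86 and -0.71 in aorta Eln+/+, 0.49, -0.20, -0.14 and 0.0046 in aorta Eln+/-, 0.011, -0.44, -0.16 and -0.18 in valve Eln+/+, and 0.51, -0.0046, 0.17 and 0.25 in valve Eln+/-. Its valve minus aorta difference was -0.03, with a 95% interval from -0.41 to 0.36 (limma adjusted p = 0.960). Probe set 1421153_at ranged from -0.48 to 0.34 over the aortas and from -0.60 to 0.29 over the valves, with a difference of -0.08 and an interval from -0.42 to 0.25 (limma adjusted p = 0.840). The 2 Loxl4 probe sets carry the same accession and correlated at only r = 0.33 over the 16 arrays, against 0.97 for the matching Lox pair and 0.87 for the Loxl1 pair. The Lox and Loxl1 values include the tissue difference of these genes. Over the deviations from the group means r was 0.35 for Loxl4, 0.89 for Lox and 0.72 for Loxl1.

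**Figure D1:**
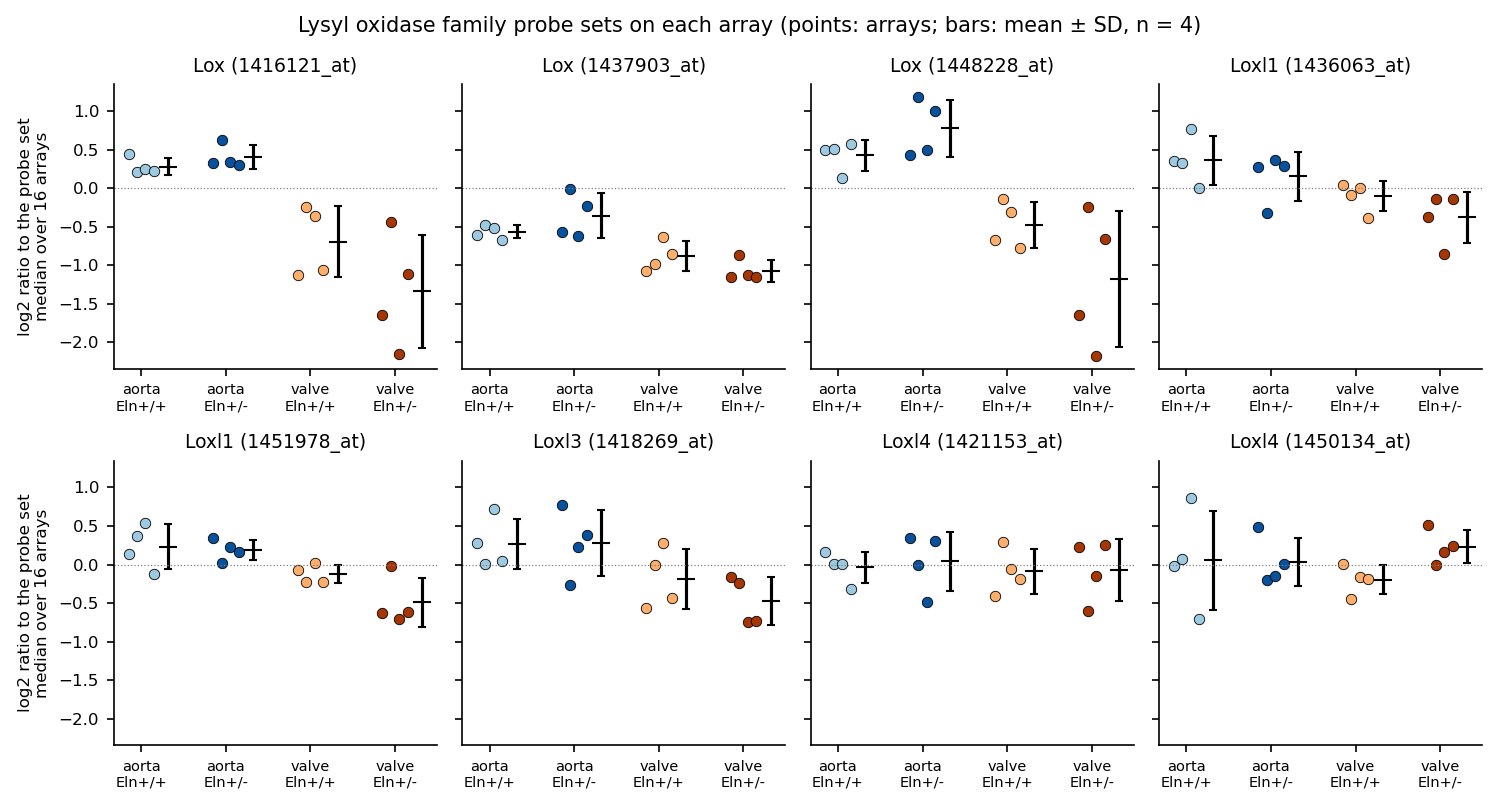
Log2 ratio to the probe set median over 16 arrays (vertical axis) for each of the 8 family probe sets, by tissue and genotype. Points are arrays, and the bars are the mean ± SD of 4 arrays. In the panel of Lox 1437903_at the ratio is not to its own median, and 0 lies above its median array. The 3 Lox panels step down from aorta to valve, most steeply 1448228_at (mean 0.42 and 0.78 in the aortas, -0.48 and -1.18 in the valves), while both Loxl4 panels stay around 0.

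Over both genotypes, 6 of the 8 family probe sets passed the limma test at an adjusted p of 0.05, all of them lower in valve. Of all 45037 probe sets, 8.04% passed in either direction and 3.64% were lower in valve. In 2 of 8, both Lox, every valve array lay below every aorta array, which held for 0.38% of all probe sets. With the probe sets of each gene averaged, Lox (-1.10), Loxl1 (-0.51) and Loxl3 (-0.60) passed, with limma adjusted p of 0.000268, 0.0108 and 0.0297, and Loxl4 (-0.05) did not (0.868).

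The 3 Lox calls and the call of Loxl1 1451978_at held whichever of the 16 arrays was left out. The other calls were less firm: Loxl1 1436063_at missed the threshold in 12 of the 16 leave-one-out fits and Loxl3 in 10 of 16, with limma adjusted p up to 0.0971 and 0.0958. Leaving out the 2 aortas with cardiac markers kept the 3 Lox calls and ended the others, with limma adjusted p of 0.123 and 0.0551 for Loxl1 and 0.0724 for Loxl3. The same 3 Lox calls were those left when a 3' to 5' signal difference of the control probe sets, a measure of RNA integrity that ran from -0.14 to 0.26 in aorta and from -0.34 to -0.014 in valve, was added as a covariate. Loxl1 then stood at -0.28 and -0.38 and Loxl3 at -0.46.

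Within single genotypes, 4 of the 8 probe sets passed in Eln+/- mice and 0 in Eln+/+ mice. The probe sets of Lox, Loxl1 and Loxl3 stood below 0 in both genotypes, while Loxl4 1450134_at stood at -0.25 in Eln+/+ and 0.19 in Eln+/- mice. In Eln+/- mice 4 of 8 probe sets passed, all lower in valve, beside 5.81% of all probe sets: Lox at -1.96 ± 0.33, -1.74 ± 0.29 and -0.72 ± 0.15 and Loxl1 1451978_at at -0.68 ± 0.17, with limma adjusted p of 0.00244, 0.0023, 0.0101 and 0.0288. Loxl3 stood at -0.75 ± 0.25 (limma adjusted p = 0.0884). Without aorta Eln+/- replicates 2 and 4, the arrays with T cell markers, 2 of these 4 calls were left. With 1 array left out at a time the Lox calls held in all 16 fits, that of Loxl1 1451978_at was lost in 6, and without aorta Eln+/- replicate 2 alone 6 of 8 passed, Loxl1 1436063_at and Loxl3 among them. In Eln+/+ mice 0 of 8 passed, beside 0.946% of all probe sets. Their differences there were all below 0, from -0.97 for Lox 1416121_at (limma adjusted p = 0.161) to -0.06 for Loxl4 1421153_at. An unadjusted limma p under 0.05 was found for 4 of the 8, beside 5335 of all 45037 probe sets. Both of the matching Lox probe sets still separated the tissues completely in Eln+/+ mice, where the exact permutation test gave p = 0.0286, its lowest possible value for 4 against 4 arrays. How many of all probe sets did so in Eln+/+ mice was not counted, so this separation cannot be called particular to Lox.

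Whether the tissue difference itself depends on genotype was tested by the interaction, in which 0 of 8 family probe sets and 0% of all probe sets passed the limma threshold. At an unadjusted p under 0.05 there were 3477 of all probe sets and 1 of the family, Lox 1448228_at, at -1.06 ± 0.47 (limma adjusted p = 0.636). The other Lox probe sets stood at -0.76 and -0.40, with limma adjusted p of 0.675 and 0.672.

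**Figure D2:**
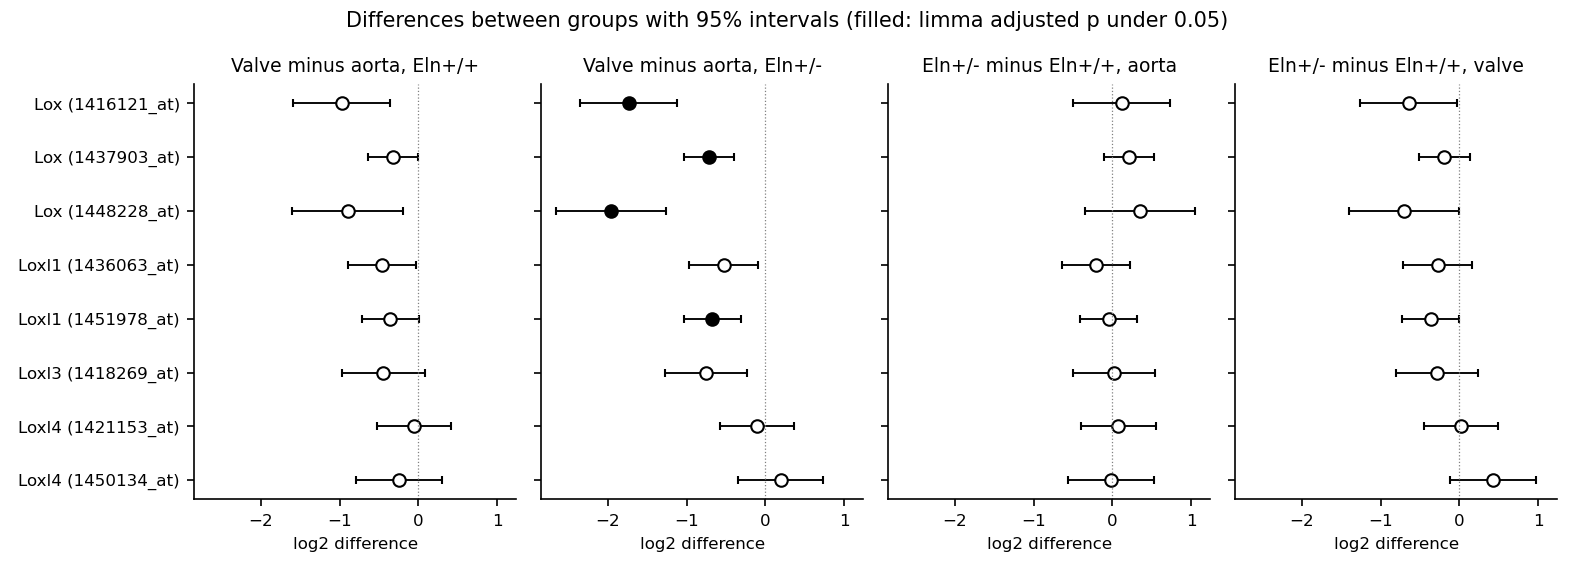
Log2 differences (horizontal axis) with 95% intervals for the 8 family probe sets, from left to right valve minus aorta in Eln+/+ and in Eln+/-, and Eln+/- minus Eln+/+ in aorta and in valve; filled points passed limma at an adjusted p of 0.05. Filled points are the 3 Lox probe sets (-1.74, -0.72 and -1.96) and 1 of Loxl1 (-0.68) in the Eln+/- tissue comparison, and both genotype panels hold open points.

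Between the genotypes no member passed. In the aorta 0 of 8 passed and 0% of all probe sets did (2480 had an unadjusted p under 0.05). The members' differences there ran from -0.21 ± 0.20 for Loxl1 1436063_at to 0.35 ± 0.33 for Lox 1448228_at, 3 below and 5 above 0. The 2 aorta Eln+/- arrays with the highest Lox 1448228_at, replicates 2 (1.18) and 4 (1.00), were the 2 with high T cell and thymocyte markers, and replicate 2 was also the aorta with the lowest value of Loxl1 1436063_at. Replicate 2 also had the highest macrophage (0.96), erythroid (2.60), mesothelium (0.87), endothelium (0.37) and fibroblast (0.30) marker means of the aortas. Replicate 4 had the lowest macrophage (-1.03), mesothelium (-1.35) and fibroblast (-0.63) means of the aortas. The part of any of these cells in these values was not tested. Without both arrays, the Lox 1448228_at difference went from 0.35 to 0.04 and that of Lox 1437903_at from 0.21 to -0.03.

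In the valve 0 of 8 passed and 0% of all probe sets did, with 3873 at an unadjusted p under 0.05 and a smallest adjusted p of 0.0539. Of the 8 members, 6 averaged lower in Eln+/- valves, a direction shared by 48.1% of all probe sets. Lox 1416121_at differed by -0.64 ± 0.29 (95% interval -1.26 to -0.03; limma adjusted p = 0.559; exact permutation p = 0.171). Lox 1448228_at differed by -0.70 ± 0.33 (limma adjusted p = 0.576; exact permutation p = 0.286). The low arrays were Eln+/- replicates 1 and 3, and the other 2 Eln+/- valves lay within the Eln+/+ range on both probe sets. Without replicate 3 the differences were -0.37 for both.

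The remaining Lox probe set differed by -0.19 ± 0.15 between the valve genotypes. For Loxl1 the differences were -0.27 ± 0.20 and -0.36 ± 0.17 (limma adjusted p = 0.749 and 0.579), and for Loxl3 it was -0.29 ± 0.25 (0.783). Loxl4 stood on the other side, at 0.43 ± 0.26 on 1450134_at (limma adjusted p = 0.673; exact permutation p = 0.0571) and at 0.02 ± 0.22 on 1421153_at. In 0 of 8 did all Eln+/- valves lie below all Eln+/+ valves, which 2.04% of all probe sets showed. Averaged over both tissues 0 of 8 passed, as did 0% of all probe sets (2841 at an unadjusted p under 0.05). By Xist, the sexes were spread unevenly over the genotypes. With the Xist measure as a covariate, the valve difference of Lox 1448228_at was -0.94 and that of Lox 1416121_at -0.85, with limma adjusted p of 0.718 and 0.706.

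Muscle markers are given beside the genotype comparison of the valve. The mean of the smooth muscle markers was -0.47, 0.25, 0.061 and -0.62 in the Eln+/+ valves and -1.03, -0.50, -1.69 and -0.47 in the Eln+/- valves. The mean of the cardiac muscle markers was 1.04, 0.51, 0.75 and 1.45 in the Eln+/+ valves and 1.89, 1.46, 2.22 and 1.57 in the Eln+/- valves. All 4 Eln+/- valves lay above the Eln+/+ valves in heart muscle signal, the nearest pair at 1.46 and 1.45, and the 2 with the lowest Lox, replicates 1 and 3, had the lowest smooth muscle and the highest cardiac muscle means. By gene, 11 of 12 smooth muscle markers averaged lower and 14 of 14 cardiac markers averaged higher in Eln+/- valves, with medians of -0.85 and 0.81, and 0 of them passed limma at an adjusted p of 0.05.

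Over the 8 valve arrays Lox 1448228_at correlated with the smooth muscle mean at r = 0.935 (exact permutation p = 0.00104, adjusted over 20 relations 0.0208) and at rho = 0.833 (exact p = 0.0154, adjusted 0.109). Without the 2 arrays farthest from the median of the marker mean r was 0.833, and over the deviations from the genotype means it was 0.916. Loxl1 1436063_at correlated at r = 0.875 with smooth muscle (exact permutation p = 0.00461, adjusted 0.0225), at rho = 0.857 (exact p = 0.0107, adjusted 0.109) and at r = 0.755 without the 2 farthest arrays. Against the cardiac mean the values were r = -0.850 and rho = -0.738 for Lox (exact permutation p = 0.00603 and 0.0458, adjusted 0.0225 and 0.153) and r = -0.819 and rho = -0.762 for Loxl1 (exact permutation p = 0.00786 and 0.0368, adjusted 0.0225 and 0.147). Without the 2 farthest arrays these r were -0.689 and -0.805. The rank correlations, unlike Pearson's r, did not pass after adjustment in any of the 20 relations.

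For Loxl3 the valve relations were weaker (r = 0.647 with smooth muscle and -0.641 with cardiac muscle; exact permutation p adjusted 0.130 and 0.136). Loxl4 1450134_at had the opposite signs, at r = -0.689 and 0.785 (adjusted 0.107 and 0.0516), and over the deviations from the genotype means r was -0.395 and 0.443. In the aorta the smooth muscle relation of Loxl1 (r = 0.811, rho = 0.690; exact permutation p = 0.00769 and 0.0694, adjusted 0.0225 and 0.173) rested on 2 arrays, and without them r was -0.083. For Lox in the aorta r was -0.646, and 0.489 without the 2 farthest arrays.

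When the 8 valve arrays were fitted with their cardiac muscle mean as a covariate, the Eln+/- minus Eln+/+ differences of Lox turned to 0.58 on 1416121_at and 0.54 on 1448228_at, that of Loxl1 1436063_at to 0.22 and that of Loxl3 to 0.15. The smooth muscle mean as a covariate gave 0.18, 0.17 and 0.06 for the first 3 of these. None passed limma under either covariate. The cardiac means of the valve genotypes did not overlap, so the fit with that covariate cannot separate genotype from cardiac muscle signal. For the tissue comparison, the smooth muscle mean as a covariate in all 16 arrays left 0 of the 6 calls: Lox stood at -1.04, -0.93 and -0.57 (limma adjusted p = 0.104, 0.0675 and 0.0744), Loxl1 at -0.13 and -0.35 (0.804 and 0.369) and Loxl3 at -0.25 (0.707).

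**Figure D3:**
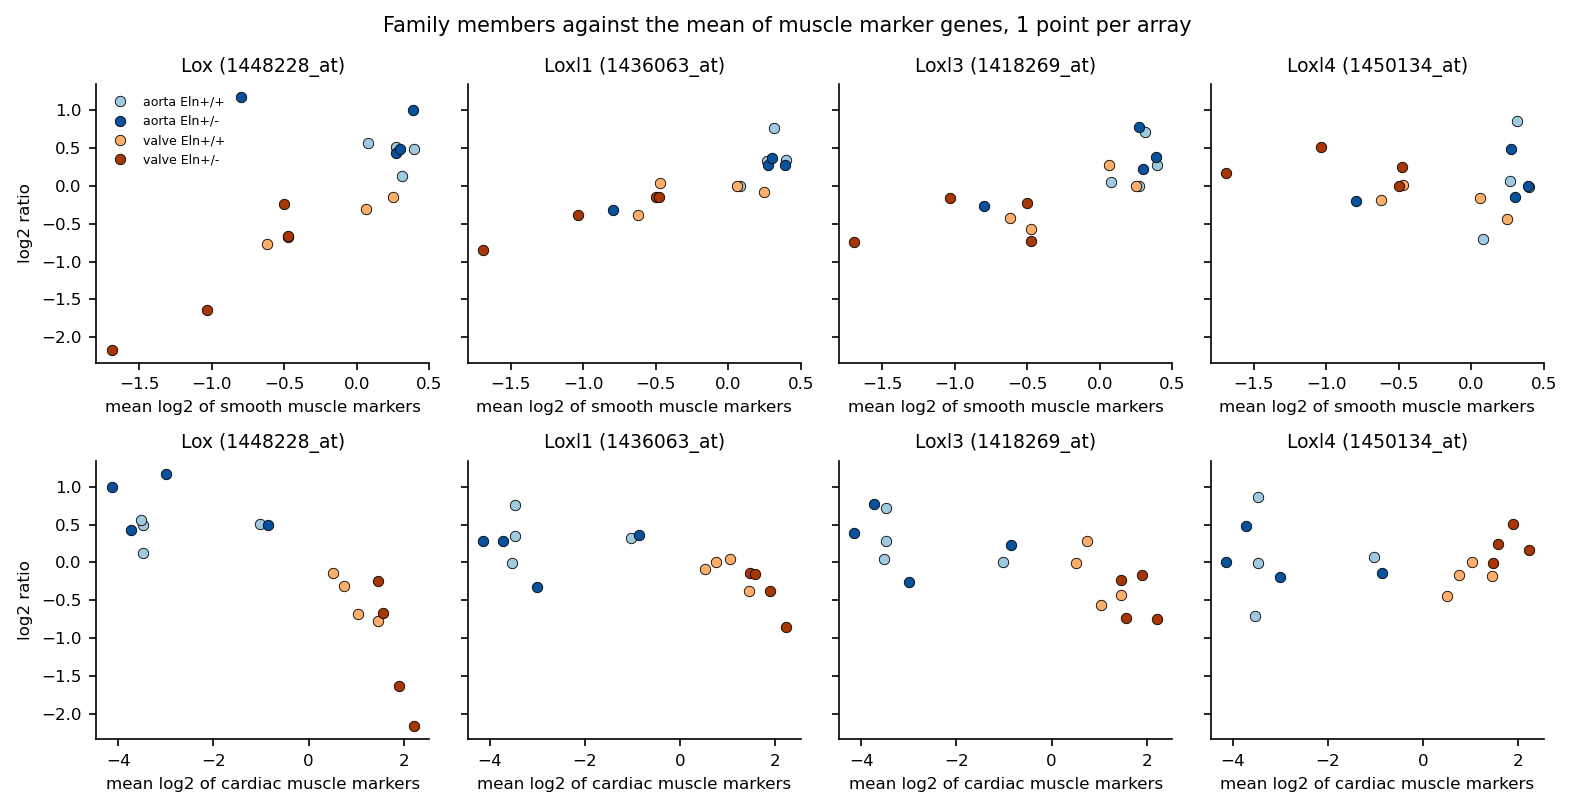
Log2 ratio of 1 probe set per member (vertical axis) against the mean log2 value of the smooth muscle markers (upper row) and of the cardiac muscle markers (lower row), 1 point per array. Among the 8 valve arrays Lox rises with smooth muscle (r = 0.935) and falls with cardiac muscle (r = -0.850), while 1 aorta Eln+/- array, at a smooth muscle mean of -0.79, has the highest Lox value of all, 1.18.

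Correlations among the members are described here without a test, because arrays share their specimens and the normalization, and they differed by pair and by tissue. Lox 1448228_at and Loxl1 1436063_at correlated at r = 0.87 over the 8 valves and at -0.80 over the 8 aortas, where Eln+/- replicate 2 had the highest Lox and the lowest Loxl1. Loxl1 1436063_at and Loxl3 correlated at 0.47 in valve and 0.75 in aorta. Loxl4 1450134_at correlated with Lox 1448228_at at -0.68 in valve and -0.52 in aorta. Against Eln, the enzyme family's substrate gene, Lox 1448228_at stood at 0.87 in valve and -0.60 in aorta and Loxl1 1436063_at at 0.87 and 0.54. The relations to Eln were among the 20 tested above. Their exact permutation p adjusted was 0.0225 for both genes in valve, and 0.166 for Lox and 0.204 for Loxl1 in aorta. Without the 2 arrays farthest from the Eln median, r in valve was 0.746 for Lox and 0.705 for Loxl1. In aorta r was then -0.0087 for Lox and -0.344 for Loxl1, so both aorta values rested on 2 arrays.

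The genes whose pattern over the 16 arrays was most like that of Lox 1448228_at were Pdgfd (Pearson r = 0.958), Skap2 (0.955), Tmsb4x (0.950), Sh3bgrl (0.946) and Kcnab1 (0.946). Their r over the deviations from the group means was lower, 0.781 to 0.868. Unc5c (0.954), Klc3 (0.945), 4930520O04Rik (0.935), Cercam (0.925) and Fgfr1 (0.924) were the nearest to Loxl1 1436063_at. Loxl3 was followed by Itgb5 (0.928), Foxc2 (0.917), Lgr6 (0.900), Lims2 (0.896) and Chrd (0.893). Loxl4 1450134_at was followed by Osbpl6 (0.906), Casq1 (0.882), Themis3 (0.806), Rnf138rt1 (0.803) and Phactr1 (0.800). The likeness of the first 3 members includes the tissue difference, which these genes share: each of the 15 was lower in valve on average, by -0.32 to -1.58.

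The genes around the enzymes did not all follow them from aorta to valve. Of 15 measured elastic fibre genes, 4 were lower and 2 higher in valve over both genotypes, with a median of -0.25 (all 18193 genes: 692 lower, 1060 higher, median -0.03). The lower ones were Eln at -1.17 ± 0.24 (-0.55 ± 0.16 on its other probe set), Mfap5 at -1.20 ± 0.12 and Mfap4 at -0.67 ± 0.13, both microfibril-associated glycoproteins, and Ltbp1, a latent TGF-beta binding protein, at -1.21 ± 0.29. Higher in valve were Fbn2, a fibrillin of developing microfibrils, at 2.82 ± 0.25 and Fbln1, a fibulin, at 0.86 ± 0.18. Their limma adjusted p ran from 7e-06 to 0.0175.

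Of 11 measured fibrillar collagens, the other substrates, 4 were higher in valve and 0 lower by the probe set with the highest SD (all 18193 genes: 1060 higher, 692 lower). With the probe sets of each gene averaged, 4 were higher and 2 lower, and no count over all genes is given for that measure. The 4 by the first measure were Col2a1 at 2.11 ± 0.49 and Col11a1 at 2.02 ± 0.38, both known from cartilage, Col11a2 at 0.97 ± 0.16 and Col5a3 at 0.87 ± 0.17. The median of the list was -0.27, of the opposite sign to its calls, since the other 7 averaged below 0. Cartilage-type markers, among which Col2a1 is one, were higher in valve in 6 of 8, with a median of 2.21, and their part in these values was not tested.

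Among 10 genes that process the proenzyme or hold it to the matrix, 3 were higher and 1 lower in valve, or 3 and 3 with the probe sets of each gene averaged. By 1 probe set per gene, 1060 of all 18193 genes were higher and 692 lower. With averaged probe sets no count over all genes is given. Thbs1, a matricellular protein, stood at 2.44 ± 0.37, Fmod, a collagen-binding proteoglycan, at 2.31 ± 0.31, and Pcolce, which enhances procollagen cleavage, at 0.55 ± 0.15. Pcolce2, a relative of Pcolce, stood at -0.73 ± 0.14. Of 16 measured collagen-modifying genes, which act on lysines and prolines inside the cell, 4 were lower and 2 higher. Plod2, a lysyl hydroxylase whose product shapes the crosslinks, stood at -0.72 ± 0.18, with P4hb, Crtap and P4ha2 all at -0.45. Colgalt2, a collagen galactosyltransferase, at 1.06 ± 0.17 and P4ha3, a prolyl hydroxylase subunit, at 1.01 ± 0.16 were higher.

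Of 11 copper handling genes, 1 was higher in valve, Cp (ceruloplasmin, 1.16 ± 0.31), and 0 lower (all 18193 genes: 1060 higher, 692 lower). Of 12 measured TGF-beta pathway genes, 0 passed in either direction, with a median of -0.05. Of the 2 measured copper amine oxidases outside the family, Aoc3, the vascular adhesion protein also made by smooth muscle, was lower in valve at -0.97 ± 0.22 and Aoc1 did not pass. With the smooth muscle mean as a covariate in all 16 arrays, the calls over these 7 lists were 1 lower and 5 higher, against 10 and 12 without it. Calls fell over all probe sets too, to 572 with the covariate from 3620 without it, so the fall is not particular to these lists.

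In the genotype comparison of the valve 0 of these genes passed limma. Averages below 0 were found for 13 of 15 elastic fibre, 8 of 11 fibrillar collagen, 7 of 10 processing, 13 of 16 collagen-modifying, 9 of 12 TGF-beta and 5 of 11 copper handling genes, against 8187 of all 18193 genes. The 2 genes of each list with the lowest p were, in that order of lists, Eln (-1.27) and Mfap4 (-0.44), Col27a1 (-0.74) and Col5a1 (-0.57), Postn (-0.53) and Fn1 (-0.48), P4ha2 (-0.43) and Fkbp14 (-0.47), Smad3 (-0.63) and Tgfb1 (-0.45), and Commd1 (0.51) and Slc31a2 (-0.41). Their limma adjusted p was 0.395 or higher. For Col27a1 and for Fkbp14, the gene's other probe set had the opposite sign.

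**Figure D4:**
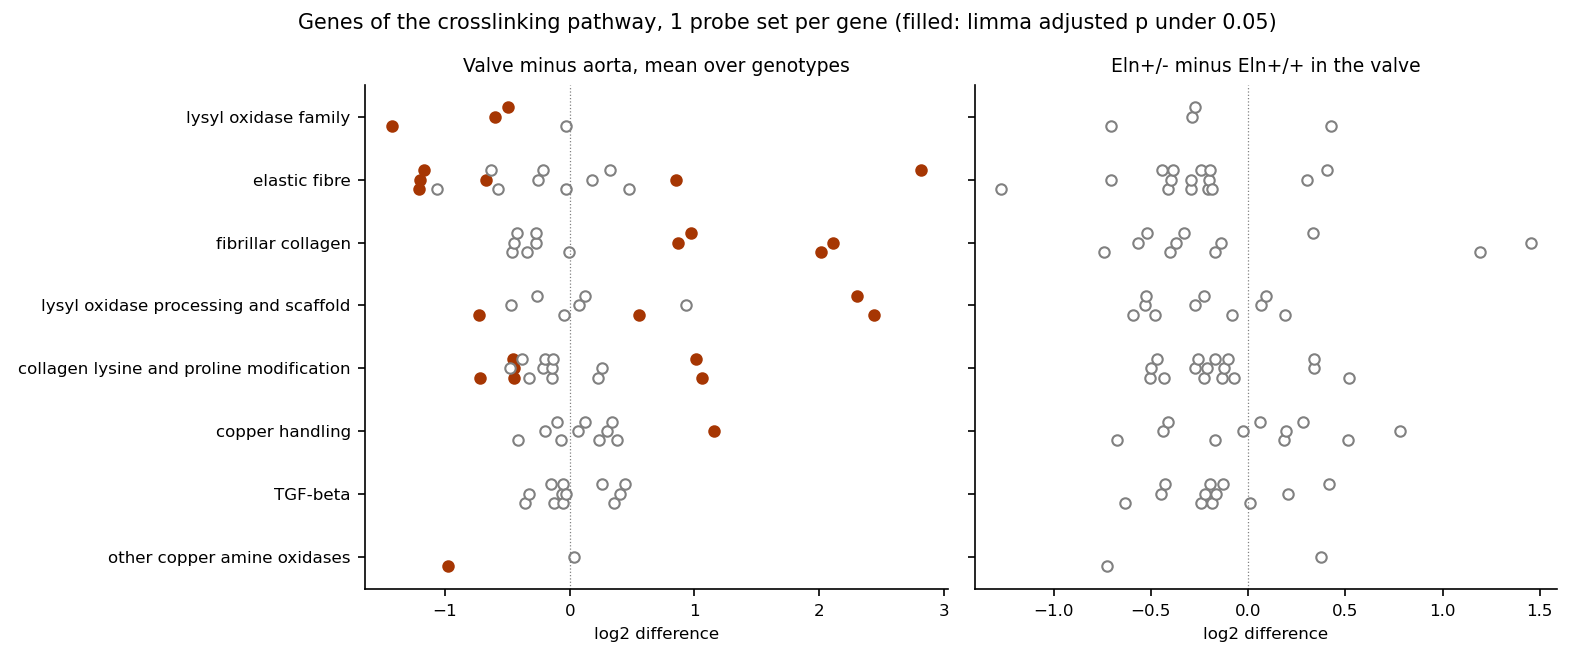
Log2 differences (horizontal axis) of the genes around lysyl oxidase, 1 point per gene and 1 row per list, for valve minus aorta averaged over genotypes (left) and for Eln+/- minus Eln+/+ in the valve (right); filled points passed limma at an adjusted p of 0.05. Filled points lie on both sides of 0 on the left, from Lox at -1.43 to Fbn2 at 2.82, and the right panel has only open points, most of them below 0.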

How the data were processed

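RNA was hybridised to Affymetrix mouse genome arrays, 16 in 4 groups of 4. RMA is named in the submitters' processing notes, with no version. The deposited values are a linear ratio, in most probe sets each signal relative to the median of its probe set over the 16 arrays. This was read from the values: the median was 1 (tolerance 1e-06) in 39827 of 45101 probe sets, below 1 in 5274 and above 1 in 0. The median ratio of an array ran from 0.957 to 1.01. A genome build is not given in the sources used here, and a filter on dim probe sets could not be applied to ratios.

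After removal of 64 control probe sets, 45037 were tested as log2. The platform annotation gives 34945 of these 1 gene, 932 several and 9160 none. Of those with 1 gene, 34741 were matched by Entrez identifier to the reference gene table, which changed 0 symbols. A model of 4 group means on all 16 arrays was fitted with limma 3.58.1 (lmFit, eBayes; statmod 1.5.0; R 4.3.3), with 12 residual degrees of freedom, two-sided tests and Benjamini-Hochberg adjustment over all probe sets at 0.05. The model was tested on simulated data. Single members also had an exact permutation test over arrays, two-sided, with 70 assignments in 1 tissue or genotype (smallest p 0.0286) and 4900 within strata. Each group's 4 arrays limit the precision, and each is taken as a separate specimen. The highest correlation of the log2 values of arrays within a group was 0.599, and 0 pairs of arrays were identical.

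Every probe set of Lox, Loxl1, Loxl3 and Loxl4 is named, and Loxl2 was left out. Other genes are shown by their probe set with the highest SD. Of a pathway list, the members past the threshold are named, or else the 2 with the lowest p between the valve genotypes, and for each member the 5 genes most like it. Fbn1, Efemp2, Fkbp10 and Aoc2 are among the listed genes without a probe set of their own, and of the Y-linked genes 3 were used. The members and lists were chosen with earlier results of these data known. Alternatives were other normalizations, a pseudocount of 0.1, array weights, fits of fewer arrays, a replicate block, and covariates for sex, muscle and RNA integrity.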

Additional observations from a re-analysis of the deposited data

Results flagged for a closer look

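In 6 of the 32 groups of 4 arrays (8 probe sets in 4 groups), 1 array stood apart from the other 3 by more than Dixon's criterion at the 95% level allows. For normally distributed values, chance flags about 1 in 20 independent groups. These groups share arrays, and several share a gene, so their count cannot be set against that rate. Aorta Eln+/- replicate 2, the aorta with the highest T cell markers (1.73) and the lowest smooth muscle markers (-0.79), gave 2 of them: Lox 1416121_at at 0.63, above the 0.30 to 0.34 of the others, and Loxl1 1436063_at at -0.32, below their 0.28 to 0.36. Valve Eln+/- replicate 2 gave another 2, on the high side: Lox 1437903_at at -0.87, above -1.15 to -1.13, and Loxl1 1451978_at at -0.016, above -0.70 to -0.61. In aorta Eln+/+, Lox 1416121_at was high on replicate 1, at 0.44 against 0.21 to 0.24, and Lox 1448228_at was low on replicate 3, at 0.13 against 0.49 to 0.57.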

How the results depend on the processing

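Of 458 differences of single members recomputed under other settings, 405 kept their sign and their side of the threshold, as did 632 of 688 with 1 array left out. For valve against aorta over both genotypes, the 3 Lox calls held under every setting in which they were tested except the smooth muscle covariate in all 16 arrays, which left 0 of the 6 family calls (572 of all probe sets; 298 and 0 family calls in Eln+/- mice; 185 in Eln+/+ mice). Leaving out probe sets with a median below 1 removes Lox 1437903_at, so it has no value there, and the other 2 Lox calls held. The 3' to 5' covariate left 3 family calls (1506 of all probe sets; 1070 in Eln+/- mice), as did leaving out aorta Eln+/+ replicate 2 and Eln+/- replicate 3 (1638 in Eln+/- mice). Array median centring took Loxl1 1436063_at to a limma adjusted p of 0.0513, and quantile normalization took Loxl3 to 0.0517. In Eln+/- mice 2 of the 4 family calls were left with only the 8 arrays compared (1602 of all probe sets) and without aorta replicates 2 and 4 (1578). Quantile normalization gave 692 probe sets in Eln+/+ mice. The settings that left out 2 aortas and the smooth muscle covariate in 16 arrays were chosen after seeing the data, and the cause of these changes was not tested.

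Between the valve genotypes, 1 probe set outside the family passed with a pseudocount of 0.1, without probe sets whose median is below 1, and with array weights. The cardiac muscle covariate turned Lox to 0.58 and 0.54, Loxl1 1436063_at to 0.22 and Loxl3 to 0.15, and the smooth muscle covariate turned the first 3 to 0.18, 0.17 and 0.056. Loxl4 1421153_at, near 0, turned to -0.00062 (quantile), -0.039 (Xist) and -0.022 (3' to 5'). In the aorta the Xist covariate turned Lox 1416121_at to -0.079, Loxl1 1451978_at to 0.17 and Loxl4 1450134_at to 0.45, the smooth muscle covariate turned the last 2 to 0.011 and 0.076, and array weights the last to 0.0093. Without aorta Eln+/- replicates 2 and 4, Lox 1437903_at turned to -0.027, Loxl1 1451978_at to 0.052, Loxl4 1421153_at to -0.035 (0.0015 for tissue in Eln+/- mice) and Loxl4 1450134_at to 0.12. Without aorta Eln+/+ replicate 2 and Eln+/- replicate 3, Loxl3 turned to -0.048 and Loxl4 1450134_at to 0.049. For tissue, Loxl4 1450134_at turned to 0.031 (3' to 5') and 0.023 (smooth muscle), and Loxl4 1421153_at under smooth muscle to 0.032, 0.018 in Eln+/+ and 0.046 in Eln+/- mice.

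With 1 array left out, 2704 to 4750 of all probe sets passed for tissue over both genotypes, 1366 (without valve Eln+/- replicate 3) to 3457 in Eln+/- and 173 (without valve Eln+/+ replicate 1) to 553 in Eln+/+ mice. Between genotypes 0 to 1 passed in aorta, 0 to 11 in valve (11 without valve Eln+/- replicate 4) and 0 to 18 over both (18 without aorta Eln+/+ replicate 4). Family calls ran from 4 to 6, from 3 to 6 in Eln+/- mice, and stayed at 0 in the other 5 comparisons. Ranges that crossed 0 were, between genotypes in aorta, Loxl1 1451978_at -0.16 to 0.058, Loxl3 -0.14 to 0.20, Loxl4 1421153_at -0.026 to 0.25 and Loxl4 1450134_at -0.27 to 0.25, and in valve Loxl4 1421153_at -0.084 to 0.20. For tissue, Loxl4 1421153_at ran from -0.17 to 0.0076 over both, -0.18 to 0.050 in Eln+/+ and -0.28 to 0.071 in Eln+/- mice, and Loxl4 1450134_at from -0.15 to 0.11 over both and -0.50 to 0.022 in Eln+/+ mice.

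Averaging the probe sets of each gene gave 2 lower fibrillar collagens for tissue against 0, and 3 lower processing genes against 1. Over 8 pairs of an aorta and a valve of 1 number the correlation of deviations ran from -0.040 to 0.052, and own number was best in 2 of 8. Such low correlations cannot exclude that specimens of 1 number shared a mouse. For Eln+/+ replicates 2 and 4 the Xist measure was opposite in aorta (-10.7 and 0.66) and valve (0.84 and -11.0). By this measure, those same-numbered specimens differed in sex and so came from different mice. With the replicate block (consensus correlation 0.0105), 3676 of all probe sets and 6 of the family passed in tissue over both genotypes, and the block changed no family call.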
